A study of Mus musculus with 18 samples.

Results

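The 9 genes followed here encode transcription regulators known from pancreatic duct cells, pancreatic progenitors and acinar metaplasia: Sox9, Sox4, Onecut1, Onecut2, Pdx1, Klf4, Klf5, Klf6 and Nr0b2. They were picked by gene name from the table of read counts, which makes 9 of the 46603 genes listed, and all 9 were among the 13203 genes that passed a filter on low counts and were tested. RNA sequencing was done on mouse pancreatic acinar cells, the enzyme-secreting cells of the exocrine pancreas, freshly isolated from WT mice (xCT+/+) or from xCT KO mice (xCT-/-), which lack in every cell the cystine transporter subunit encoded by Slc7a11. Cells were kept in suspension in Advanced RPMI medium, in which acinar cells dedifferentiate, and were collected at day0, day1 and day4, with 3 libraries in each of the 6 groups and 18 in all. The labels name no other treatment. The age and sex of the mice and any pooling of animals are not given in the sources used here. The mice descend from an established xCT knockout strain, and the isolated material is called exocrine cells in the methods, so cells other than acinar cells could be present.

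Acinar cells under stress lose their enzymes and take on features of duct and progenitor cells, a change called acinar-to-ductal metaplasia when it occurs in the pancreas. Sox9 and Sox4 belong to the SOX family, which binds DNA through an HMG box. Sox9 maintains pancreatic progenitors and marks duct and centroacinar cells of the adult. Onecut1 (HNF6) and Onecut2 are cut-homeodomain factors of liver and pancreas development, and Pdx1 is the homeodomain factor needed to form the pancreas, later held high in beta cells. Klf4, Klf5 and Klf6 are zinc-finger factors that bind GC-rich motifs, and Klf4 and Klf5 are known to favour metaplasia in the mouse pancreas. Nr0b2 (SHP) is a nuclear receptor without a DNA-binding domain, which represses other receptors such as Nr5a2.

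Libraries held 12127474 to 20135435 counts. Levels are given as CPM, counts scaled to a common library size by TMM, a method that sets the bulk of genes equal between libraries. This scaling mattered, because 12 acinar enzyme genes took between 62.4% and 64.3% of all counts at day 0, between 52.4% and 56.5% a day later, and between 6.67% and 11.1% in the day 4 libraries. With plain library totals the median gene rose from day 0 to day 4 by 3.10 on the log2 scale in WT and by 3.23 in KO, against 0.13 and 0.17 with TMM. Each change over time given here is therefore relative to the bulk of genes, and members whose direction flips with library totals are named. The targeted gene followed the labels: Slc7a11 stood at 10.2, 70.4 and 38.5 CPM in WT at days 0, 1 and 4, and at 0.66, 1.16 and 0.47 CPM in KO. Counts of the Y-linked gene Ddx3y occurred in the 3 WT libraries numbered 1 and in no other library, so sex was not balanced between the genotypes. As these are bulk libraries, fewer cells of a type and less RNA per cell cannot be told apart.

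In WT cells, 5 of the 9 members rose from day 0 to day 1 (Sox9, Sox4, Klf4, Klf5 and Klf6), 3 fell (Onecut1, Pdx1 and Nr0b2) and Onecut2 did not pass the test, at an adjusted p under 0.05 from edgeR. Over all tested genes, 28.6% were called higher and 26.9% lower in this comparison. In KO cells 4 members rose (Sox4, Klf4, Klf5 and Klf6) and the 3 members that fell were again Onecut1, Pdx1 and Nr0b2, where 30.5% of all genes were called higher and 27.6% lower. The median log2 change of the members was 1.59 in WT and 1.11 in KO, and that of all genes was 0.01 and 0.05. WT and KO comparisons over time share no libraries with each other, but the comparisons within a genotype share them.

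**Figure D1:**
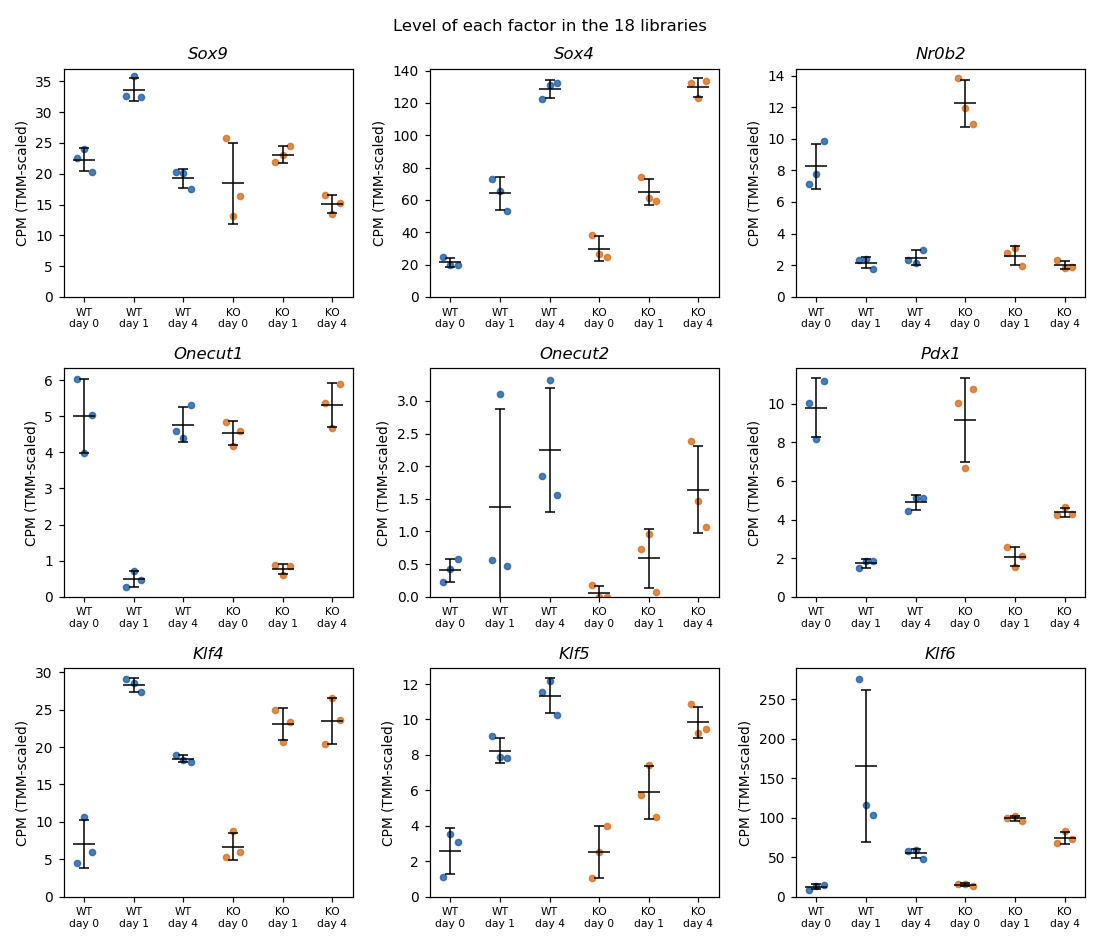
TMM-scaled CPM (linear axes from 0) of the 9 factors in WT (blue) and KO (orange) libraries at days 0, 1 and 4, where each point is 1 library and bars are the mean and SD of 3. Onecut1 and Pdx1 were lowest at day 1, Sox4 was highest at day 4, and 1 WT day 1 library stood far above the others in Klf6.

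From day 1 to day 4, Sox4, Onecut1, Pdx1 and Klf5 rose in both genotypes. In KO Onecut2 was called too once the replicate number, which no label ties to animals, entered the model as a block. In WT, Sox9, Klf4 and Klf6 were called lower, and in KO Sox9 alone was. With library totals each of these 4 changes turned positive. In KO every Klf6 library of day 4 also lay below those of day 1, but the change was not called (adjusted p = 0.239 from edgeR). The share of all genes called was 26.3% higher and 26% lower in WT, and 26.2% higher and 27.1% lower in KO. Between day 0 and day 4, Sox4, Klf4, Klf5 and Klf6 were higher at day 4 in both genotypes, while Pdx1 and Nr0b2 were lower, a direction that flipped with library totals. Onecut2 was also called higher in both, but day 4 libraries made up 6 of the 9 that took it past the filter, and in WT the call was lost when any 1 of the 3 day 0 libraries was left out (adjusted p from 0.0661 to 0.099). In that comparison 33.5% of genes were called higher and 26.9% lower in WT, and 35.3% higher and 29% lower in KO. The median log2 change of the members was 1.38 in WT and 1.82 in KO.

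**Figure D2:**
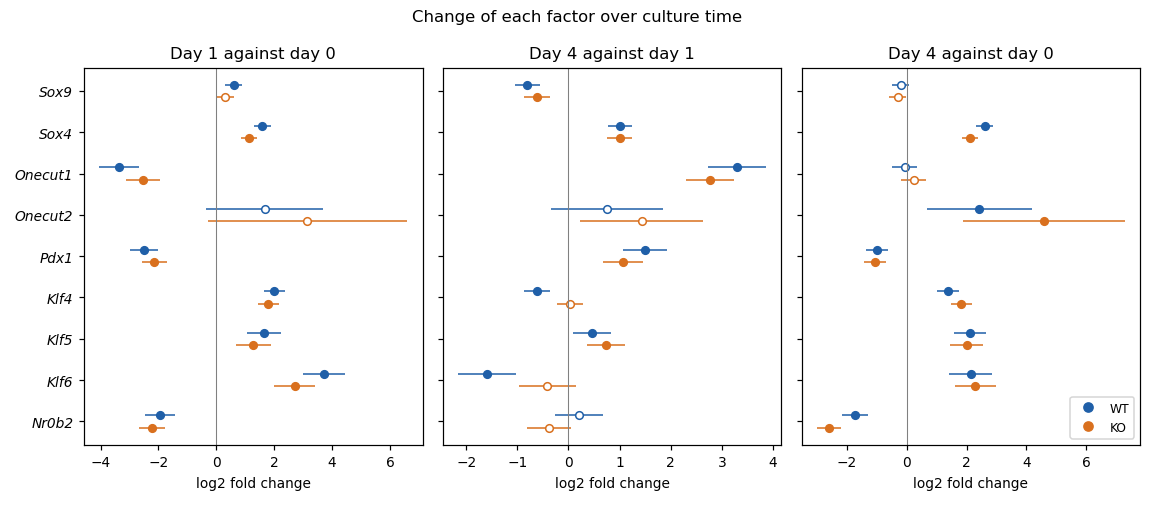
Log2 fold change of each factor between days in WT (blue) and KO (orange), with 95% intervals as lines and filled points for an adjusted p under 0.05. Onecut1 changed by -3.36 and then 3.29 in WT, and the lines of Onecut2, a gene with few counts, were the widest.

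Sox9 (ENSMUSG00000000567, GRCm38 chr11:112782224-112787760, plus strand, 3 exons) peaked at day 1 in WT. Its level was 22.5, 24.1 and 20.3 CPM in the 3 WT libraries of day 0, 32.6, 35.9 and 32.5 CPM at day 1, and 20.2, 20.1 and 17.4 CPM at day 4. The day 1 libraries lay above all others of that genotype. The log2 fold change was 0.60 ± 0.15 (SE) from day 0 to day 1 (adjusted p = 0.00115) and 0.32 with limma on FPKM, which did not call it (adjusted p = 0.0788). It was -0.80 ± 0.13 from day 1 to day 4 (adjusted p = 3.44e-06), the latter turning to 1.18 with library totals. In KO the levels were 25.8, 13.2 and 16.3 CPM at day 0, 21.8, 23.0 and 24.5 CPM at day 1, and 16.6, 13.5 and 15.2 CPM at day 4. KO library 1 of day 0 stood above all KO libraries of day 1, and the log2 change to day 1 of 0.31 ± 0.15 did not pass the test (adjusted p = 0.0867). Without that library it was 0.65 with an adjusted p of 0.000597. The fall to day 4 in KO was -0.61 ± 0.13 (adjusted p = 0.000153), against 1.22 with library totals.

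Sox4 (ENSMUSG00000076431, chr13:28948919-28953713, minus strand, a single-exon gene), a SOX factor active in progenitors of many tissues, rose in both steps, as did Klf5. WT libraries held 24.8, 19.5 and 19.7 CPM at day 0, 73.2, 65.8 and 53.0 CPM at day 1, and 123, 131 and 132 CPM at day 4. KO libraries held 38.6, 26.3 and 24.5 CPM at day 0, 74.4, 60.9 and 59.3 CPM at day 1, and 132, 123 and 133 CPM at day 4. In neither genotype did the days overlap. From day 0 to day 4 the log2 fold change was 2.60 ± 0.15 in WT (adjusted p = 4.72e-15) and 2.11 ± 0.14 in KO (adjusted p = 1.28e-13). Sox4 shares 2616 of its 4795 exon bases (54.6%) with the opposite-strand noncoding gene Gm26735. As the strand setting of the counting is not given, how reads of the shared bases were counted is not known. Gm26735 itself had 0 to 73 counts summed over a group, against 306 to 23918 for Sox4.

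Of 17 other SOX genes, 8 were tested, and from day 0 to day 1 in WT none rose and 6 fell with a median log2 change of -2.25, where the count was 3 higher and 3 lower with library totals. From day 0 to day 4, 1 of the 8 rose and 6 fell in each genotype. With library totals these counts were 5 and 1. Sox6, a SoxD factor, had a mean of 16.1 CPM at day 0 and 1.74 CPM at day 1 in WT (log2 change -3.22, adjusted p = 2.6e-11). Sox12, of the same subgroup as Sox4, went from 12.2 to 4.44 CPM (log2 change -1.46, adjusted p = 1.0e-06).

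Onecut1 (ENSMUSG00000043013, chr9:74861921-74891781, plus strand, 3 exons) showed the deepest trough at day 1. In WT it stood at 6.02, 3.98 and 5.02 CPM at day 0, at 0.28, 0.72 and 0.46 CPM at day 1, and at 4.58, 4.39 and 5.31 CPM at day 4. In KO it stood at 4.84, 4.18 and 4.58 CPM at day 0, at 0.87, 0.61 and 0.85 CPM at day 1, and at 5.37, 4.66 and 5.90 CPM at day 4. The ranges of day 0 and day 4 overlapped in both genotypes and those of day 1 lay below them. Onecut1 changed to day 1 by a log2 fold change of -3.36 ± 0.35 in WT (adjusted p = 1.19e-09) and -2.54 ± 0.30 in KO (adjusted p = 1.46e-08), and it stayed negative with library totals, at -2.35 and -1.30. The return to day 4 was 3.29 ± 0.29 in WT and 2.77 ± 0.24 in KO. Onecut1 had 3 to 13 counts a library at day 1, so its low level is imprecise. It passed the filter with 14 libraries over the minimum, among them all of day 0 and day 4, while neither day 1 group was complete. The p-values of the fall and the return are therefore no independent support for a trough. It shares 2171 of 4113 exon bases with the same-strand gene Gm20649, which had 0 counts in every group.

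The 250 bases before the RefSeq start of Onecut1 (GRCm38.p6, chr9:74861671-74861920, plus strand) are shown because this gene fell and returned so sharply. Capitals mark GGGCGG, the GC box that KLF and SP factors bind, on either strand. It was present in 32.9% of 27025 mouse promoters of this length, and its first bases lay 115 and 68 bases before the start of Onecut1.
Onecut1: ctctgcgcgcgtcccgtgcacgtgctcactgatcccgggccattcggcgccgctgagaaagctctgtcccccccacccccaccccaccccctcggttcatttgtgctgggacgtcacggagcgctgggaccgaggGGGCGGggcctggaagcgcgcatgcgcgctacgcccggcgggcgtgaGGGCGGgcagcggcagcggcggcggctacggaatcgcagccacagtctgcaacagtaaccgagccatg

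Onecut2 (ENSMUSG00000045991, chromosome 18) was the weakest member, with 759 counts over the 18 libraries, and 9 libraries were over the minimum of the filter, among them all 6 of day 4. Its level in WT was 0.22, 0.42 and 0.58 CPM at day 0, 0.56, 3.10 and 0.46 CPM at day 1, and 1.85, 3.32 and 1.57 CPM at day 4. In KO it was 0.17, 0 and 0 CPM at day 0, 0.73, 0.95 and 0.08 CPM at day 1, and 2.38, 1.46 and 1.08 CPM at day 4. WT library 2 of day 1 stood among the day 4 values. In WT, 6 counts at day 0 and 383 at day 4 gave a ratio of 5.44 in CPM, with a 95% counting interval from 2.48 to 14.9. In KO a single count at day 0 stood against 302 at day 4, a ratio of 25.5 with an interval from 4.55 to 1012. These intervals cover counting error only. Because mostly day 4 libraries took the gene past the filter, the edgeR calls at day 4 against day 0 (adjusted p = 0.0252 in WT and 0.00742 in KO) are no independent support for a rise, and the same limit holds for day 4 against day 1. From day 1 to day 4 the KO change of 1.43 ± 0.61 did not pass the test (adjusted p = 0.057), but with the replicate number as a block it did, at 1.51 and an adjusted p of 0.0043. In WT this change was 0.75 ± 0.56, and 2.13 without library 2 of day 1, with an adjusted p of 0.0043.

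Pdx1 (ENSMUSG00000029644, chr5:147269959-147275848, plus strand, 2 exons) had the same low point at day 1. Its WT libraries held 10.04, 8.16 and 11.2 CPM at day 0, 1.48, 1.86 and 1.86 CPM at day 1, and 4.43, 5.13 and 5.11 CPM at day 4. Its KO libraries held 10.03, 6.69 and 10.8 CPM at day 0, 2.60, 1.57 and 2.09 CPM at day 1, and 4.21, 4.63 and 4.29 CPM at day 4. No day overlapped with another in either genotype. The log2 fold change to day 1 was -2.50 ± 0.25 in WT (adjusted p = 4.95e-10) and -2.14 ± 0.23 in KO (adjusted p = 2.08e-09). Day 4 stayed below day 0 by a log2 change of -1.005 ± 0.19 in WT and -1.07 ± 0.19 in KO, which became 1.96 and 1.998 with library totals.

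Pdx1 is also a beta cell gene, and islet markers moved in the same samples. The 15 islet genes summed to between 617 and 2045 CPM in the WT libraries of day 0, and to between 193 and 634 CPM a day later. KO libraries held between 379 and 532 CPM of them at first and between 140.0 and 367 CPM a day later. All 15 were detected, 7 fell from day 0 to day 1 in WT and 2 in KO, and none rose. Their part in the Pdx1 values was not tested.

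Among 22 other duct and progenitor transcription factors, 19 were tested. From day 0 to day 1 in WT, 4 rose and 10 fell (median log2 change -0.79), and 8 rose and 3 fell with library totals. Foxa2, a pioneer factor of foregut endoderm, had means of 24.9, 7.90 and 24.8 CPM at days 0, 1 and 4 in WT, and Mecom, a zinc-finger factor, had 16.3, 3.99 and 19.5 CPM. Both fell to day 1 (log2 change -1.65 and -2.03, adjusted p = 4.1e-11 and 6.2e-09) and rose to day 4 (1.65 and 2.28). Elf3, an epithelial ETS factor, went the other way at 13.3, 57.1 and 31.5 CPM, as did the Notch target Hes1 at day 1, from 3.07 to 12.6 CPM. From day 1 to day 4, 7 of the 19 rose and 2 fell in WT, and 9 rose and 3 fell in KO.

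Klf4 (ENSMUSG00000003032, chr4:55527143-55532466, minus strand, 5 exons) was raised at day 1 and stayed above day 0. WT libraries held 4.46, 10.7 and 5.99 CPM at day 0, 29.1, 28.5 and 27.3 CPM at day 1, and 18.9, 18.3 and 18.1 CPM at day 4. KO libraries held 5.36, 8.78 and 5.98 CPM at day 0, 25.0, 20.7 and 23.4 CPM at day 1, and 20.3, 26.5 and 23.6 CPM at day 4. In WT the days were separate, and in KO day 1 and day 4 overlapped. To day 1 it rose by 2.002 ± 0.19 on the log2 scale in WT (adjusted p = 3.02e-10) and 1.79 ± 0.19 in KO (adjusted p = 2.32e-09). From day 1 to day 4 it was -0.62 ± 0.13 in WT (adjusted p = 0.000217), or 1.36 with library totals and -0.30 with limma on FPKM, which did not call it (adjusted p = 0.169), and 0.03 ± 0.13 in KO (adjusted p = 0.867). The difference between these changes was 0.65 ± 0.18 and missed the threshold at an adjusted p of 0.0509, which ranged from 0.0281 to 0.191 when libraries were left out in turn. It was called without KO library 1 of day 1 or KO library 1 of day 4.

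Klf5 (ENSMUSG00000005148, chr14:99298691-99313405, plus strand, 4 exons), a KLF of proliferating epithelia, rose in both steps. In WT it stood at 1.12, 3.56 and 3.09 CPM at day 0, at 9.08, 7.86 and 7.80 CPM at day 1, and at 11.6, 12.2 and 10.3 CPM at day 4. In KO it stood at 1.04, 2.51 and 3.99 CPM at day 0, at 5.74, 7.43 and 4.49 CPM at day 1, and at 10.8, 9.23 and 9.44 CPM at day 4. No days overlapped within a genotype. The log2 fold change from day 0 to day 4 was 2.11 ± 0.28 in WT (adjusted p = 1.32e-07) and 2.004 ± 0.28 in KO (adjusted p = 3.29e-07). The later step was 0.46 ± 0.19 in WT (adjusted p = 0.042) and lost its call in 4 of 6 sets with a library left out, namely without libraries 2 or 3 of day 1 and libraries 1 or 2 of day 4. In KO it was 0.73 ± 0.19 (adjusted p = 0.00175).

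Klf6 (ENSMUSG00000000078, chr13:5861489-5870393, plus strand, 4 exons), an injury-induced factor, had the largest rise from day 0 to day 1 of the members that rose in WT. Its level was 8.92, 13.6 and 14.7 CPM at day 0, 276, 116 and 104 CPM at day 1, and 57.9, 58.6 and 48.3 CPM at day 4. In KO it was 15.7, 16.5 and 13.6 CPM at day 0, 99.7, 102 and 96.1 CPM at day 1, and 68.0, 82.9 and 72.8 CPM at day 4. No days overlapped in either genotype, but WT library 1 of day 1 stood alone. Klf6 rose to day 1 by 3.73 ± 0.37 on the log2 scale in WT (adjusted p = 1.58e-06) and 2.70 ± 0.35 in KO (adjusted p = 2.12e-05), and the WT value was 3.15 without that library. The fall to day 4 in WT was -1.59 ± 0.29 (adjusted p = 0.000462), which was -0.9995 without the library and 0.40 with library totals. In KO the change was -0.41 ± 0.28 (adjusted p = 0.239). As all 6 groups share 1 estimate of the spread, WT library 1 of day 1 also enters this KO test.

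The same library was high in other genes that respond early to stimuli. Egr1, an immediate early zinc-finger factor, stood at 249, 44.99 and 45.5 CPM in the WT libraries of day 1. Klf2, a shear-responsive KLF, stood at 17.98, 9.62 and 9.66 CPM. Of 22 tested immediate early genes, 19 were highest in library 1 among the WT libraries of day 1, and their summed level was 1754 CPM against 1157 and 1230. Without Egr1 the sums were 1505, 1112 and 1185 CPM. Across all genes, 4 lay more than 1 log2 unit above both other libraries there, with Egr1 first and Klf6 second. The same library is 1 of those with counts of Ddx3y, and the part of this in the Klf6 value was not tested.

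**Figure D3:**
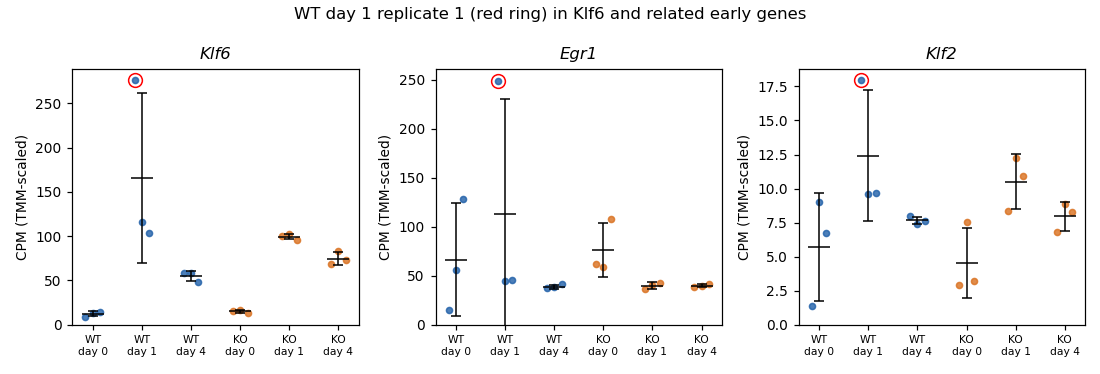
TMM-scaled CPM (linear axes from 0) of Klf6, Egr1 and Klf2 in each library, with the mean and SD of 3 as bars and a red ring around WT library 1 of day 1. That library held 276 CPM of Klf6 against 104 to 116 in the others of its group, and 249 CPM of Egr1 against 44.99 and 45.5.

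Among 14 other KLF genes, 11 were tested. From day 0 to day 1, 8 rose and 3 fell in WT and 6 rose and 3 fell in KO, with median log2 changes of 1.10 and 1.03. Klf10, a TGF-beta-inducible KLF, went from 3.82 to 31.05 CPM in WT (log2 change 3.03, adjusted p = 2.2e-06), and Klf16 from 5.41 to 17.98 CPM (1.75, adjusted p = 1.8e-09). Klf15, a KLF of metabolic tissues, fell from 46.96 to 4.86 CPM (-3.27, adjusted p = 1.1e-07). From day 1 to day 4 in WT none of the 11 rose and 6 fell, but 10 rose with library totals. Of the immediate early genes, 12 of 22 rose to day 1 in WT and 13 in KO, and none fell.

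The promoters of Klf4 and Klf6, which rose together at day 1, are shown with GGGCGG on either strand in capitals, counted from the RefSeq start (GRCm38.p6). Klf4 (chr4:55532476-55532725, minus strand) had 4 matches, with first bases 217, 212, 189 and 101 before the start, of which the first 2 share a base, and Klf6 (chr13:5861239-5861488, plus strand) had 1, at 63.
Klf4: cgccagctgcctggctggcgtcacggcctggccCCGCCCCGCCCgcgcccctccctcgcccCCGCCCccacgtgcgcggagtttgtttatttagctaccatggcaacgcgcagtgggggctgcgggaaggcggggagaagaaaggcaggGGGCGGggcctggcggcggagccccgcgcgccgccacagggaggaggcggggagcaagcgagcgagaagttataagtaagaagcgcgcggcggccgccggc
Klf6: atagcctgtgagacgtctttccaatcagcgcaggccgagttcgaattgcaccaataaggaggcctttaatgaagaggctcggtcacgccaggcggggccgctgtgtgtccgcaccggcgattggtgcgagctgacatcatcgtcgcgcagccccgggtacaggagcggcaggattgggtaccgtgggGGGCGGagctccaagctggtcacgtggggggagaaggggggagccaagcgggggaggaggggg
Klf6 also had 4 matches to ATTGG, the inverted CCAAT box on either strand, which 34.5% of promoters held at least once. Neither promoter held the AP-1 motif TGANTCA, found in 6.87% of promoters. A match is a string of letters, not a measured binding site.

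Nr0b2 (ENSMUSG00000037583, chr4:133553376-133556536, plus strand, 2 exons) fell between day 0 and day 1 and stayed low. WT libraries held 7.14, 7.75 and 9.86 CPM at day 0, 2.32, 2.38 and 1.76 CPM at day 1, and 2.33, 2.14 and 2.99 CPM at day 4. KO libraries held 13.8, 11.9 and 10.96 CPM at day 0, 2.80, 3.07 and 1.93 CPM at day 1, and 2.32, 1.82 and 1.90 CPM at day 4. Day 0 lay above both later days, which overlapped. Nr0b2 changed to day 1 by a log2 fold change of -1.95 ± 0.26 in WT (adjusted p = 1.57e-07) and -2.23 ± 0.22 in KO (adjusted p = 7.32e-10). At day 4 against day 0 it was -1.74 ± 0.22 in WT and -2.61 ± 0.20 in KO, which turned to 1.22 and 0.46 with library totals.

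The Nr0b2 promoter (GRCm38.p6, chr4:133553126-133553375, plus strand) is printed with TCAAGG in capitals, the core letters of the element that Nr5a2 and related receptors bind, searched on both strands. It held 2 matches, at 68 and 35 bases before the start, while 12.5% of promoters held any.
Nr0b2: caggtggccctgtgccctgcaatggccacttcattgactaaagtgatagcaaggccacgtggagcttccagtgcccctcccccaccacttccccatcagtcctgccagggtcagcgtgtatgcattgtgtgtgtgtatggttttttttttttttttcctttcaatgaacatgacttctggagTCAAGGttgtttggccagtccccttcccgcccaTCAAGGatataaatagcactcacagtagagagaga
Nr5a2, the acinar and liver receptor whose partner Nr0b2 is, fell as well, from 58.1 to 16.4 CPM in WT at day 1 (log2 change -1.83 ± 0.12, adjusted p = 1.8e-13) and from 68.4 to 18.3 CPM in KO (-1.90, adjusted p = 2.2e-14). It stood at 29.8 CPM in WT and 32.7 CPM in KO at day 4. Of the 11 tested nuclear receptors around Nr0b2, 2 rose and 8 fell to day 1 in each genotype (median log2 change -0.98 in WT and -1.08 in KO), against 5 and 3 with library totals. Hnf4a rose to 55.5 CPM at day 4 in WT from 24.6 CPM at day 0 (log2 change 1.17, adjusted p = 3.0e-11).

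Acinar identity factors and duct markers gave the setting of these changes. Of 8 acinar transcription factors, 6 fell to day 1 in each genotype and none rose, and with library totals 4 rose and 3 fell in WT. Rbpjl, the acinar partner of Ptf1a, stood at 159, 95.3 and 13.6 CPM in WT. Of 19 tested duct and metaplasia markers, 14 rose and 3 fell between day 0 and day 4 in each genotype, with Krt8 at 125, 2773 and 1092 CPM and Krt19 at 35.2, 502 and 193 CPM at days 0, 1 and 4 in WT. Endothelial and fibroblast markers changed too. In WT, the 10 endothelial genes summed to between 120 and 160 CPM at day 0 and to between 16.1 and 20.3 CPM a day later, and the 10 fibroblast genes went from between 94.6 and 231 CPM to between 9.57 and 12.4 CPM. Their part in the members' values was not tested.

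Per kilobase of gene length, which allows genes to be compared, the order of the members turned over with time. At day 0, Nr0b2 was highest in WT (7.29 ± 1.26 CPM per kilobase, SD, n = 3) and in KO (10.8 ± 1.29), ahead of Sox9 in WT at 5.39 ± 0.46 and Sox4 in KO at 6.22 ± 1.59. At day 1 Klf6 was highest, at 39.2 ± 22.7 in WT and 23.6 ± 0.75 in KO, followed by Sox4 at 13.3 ± 2.13 and 13.5 ± 1.73. At day 4 Sox4 was highest, at 26.8 ± 1.13 in WT and 27.0 ± 1.20 in KO. Onecut2 was lowest in all 6 groups, between 0.0043 and 0.168, with Onecut1 next. Sox4 and Onecut1 share 54.6% and 52.8% of their exon bases with other genes. How reads of those bases were counted is not given, so their levels per kilobase and their ranks could be too low.

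**Figure D4:**
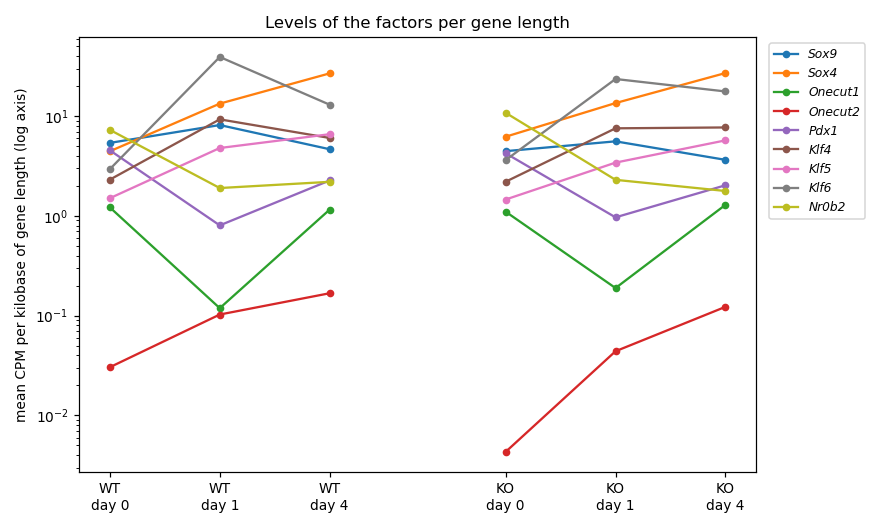
Mean CPM per kilobase of gene length (log axis) of the 9 factors at days 0, 1 and 4 in WT (left) and KO (right), 3 libraries a point. Nr0b2 led at day 0, Klf6 at day 1 and Sox4 at day 4 in both genotypes, and the KO point of Onecut2 at day 0 rests on 1 count. Lengths include exon bases that Sox4 and Onecut1 share with other genes.

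Between genotypes, 1 member passed the test at 1 day. At day 0 none of the 9 was called, where 1.17% of all genes were, and 2 had an unadjusted p under 0.05 (Sox4 and Nr0b2), as had 1748 of the 13203 genes tested. Such small counts of 9 genes are not read as a result about the group at any day. At day 1 only Sox9 was called, at 21.8, 23.0 and 24.5 CPM in KO against 32.6, 35.9 and 32.5 CPM in WT, with no overlap. Sox9 differed by a log2 fold change of -0.54 ± 0.13 (adjusted p = 0.0317) with 1.45% of all genes called, and it was -0.23 and no longer called with library totals (adjusted p = 0.349). Leaving out libraries in turn gave adjusted p-values from 0.0399 to 0.173, and the call remained only without KO library 3. Klf4, Klf5 and Klf6 were also lower in KO at day 1, by log2 changes of -0.30, -0.48 and -0.73. Each had an unadjusted p under 0.05 and missed the threshold (adjusted p = 0.332, 0.310 and 0.274). With Sox9, 4 of 9 members had an unadjusted p under 0.05, beside 1823 of all 13203 genes. For Klf6 the difference ranged from -0.98 to -0.15 when libraries were left out in turn. Its WT library 1 of day 1 stood at 276 CPM, against 116 and 104 CPM in the other WT libraries of that day. At day 4 none was called, where 10.2% of all genes were, and 2 members (Sox9 and Klf4) and 3210 genes had an unadjusted p under 0.05. Sox9 stood at -0.35 ± 0.12 (adjusted p = 0.0538) and Klf4 at 0.35 ± 0.12 (adjusted p = 0.062), and DESeq2 called Klf4 but not Sox9.

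**Figure D5:**
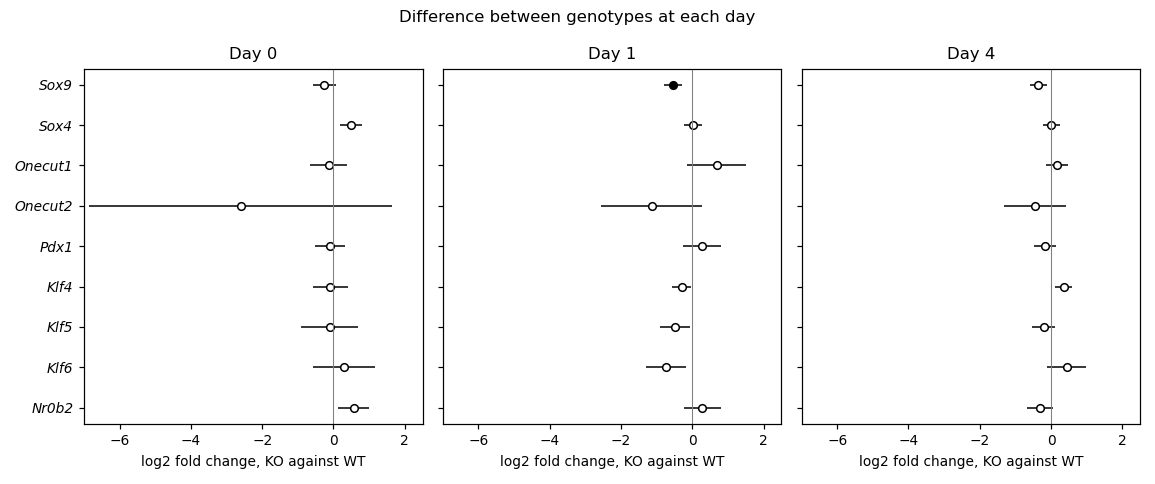
Log2 fold change of KO against WT for each factor at days 0, 1 and 4, with 95% intervals as lines and a filled point for an adjusted p under 0.05. Sox9 at day 1, at -0.54, is the only filled point.

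For the other members the interval of the difference limits what could have been missed. Sox4 differed by 0.01 at day 4 with an interval from -0.22 to 0.24 on the log2 scale, and Pdx1 by -0.16 with an interval from -0.47 to 0.14. Nr0b2 was higher in every KO library of day 0, at 0.57 ± 0.22, with an adjusted p of 0.247. Onecut2 had 1 count in KO and 6 in WT at day 0, a ratio of 0.154 in CPM with a counting interval from 0.0034 to 1.27. Klf6 was 0.44 ± 0.28 higher in KO at day 4 and not called (adjusted p = 0.376), and it was called without the 3 WT libraries numbered 1, at 0.48 with an adjusted p of 0.0040. The change of the genotype difference with time was called for none of the members, either from day 0 to day 1, where 0.0985% of all genes were called, or from day 1 to day 4, where 2.6% were.

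Calls by genotype in the related factor lists are given beside the share over all genes. Of 19 tested duct and progenitor factors, Elf3 alone was called at day 1 and at day 4, where 1.45% and 10.2% of all genes were. At day 1 the other SOX (8 tested), other KLF (11), nuclear receptor (11) and acinar factor (8) lists had 0 calls. At day 4 these lists had 2, 1, 1 and 1 calls, small counts that are not read as a result. Of 22 tested immediate early genes, 1 was lower in KO at day 1, and 1 was higher and 3 lower at day 4. Elf3 was lower in KO at day 1 (32.97 against 57.1 CPM, log2 change -0.79, adjusted p = 0.00022) and at day 4 (20.8 against 31.5 CPM, -0.60, adjusted p = 0.00041). Of the 19 duct and metaplasia markers, 10 were lower in KO at day 4 and none higher, with a median log2 difference of -0.49 beside -0.02 over all genes, and 5 were lower with library totals. In the list of duct cell markers 3 of 11 were lower, with a median of -0.01. Krt19, a keratin of duct cells, stood at 106 CPM in KO and 193 CPM in WT (-0.86, adjusted p = 2.8e-05). Fibroblast markers moved with this comparison, at a summed 26.2 to 59.4 CPM in KO and 239 to 329 CPM in WT at day 4, and 8 of 10 were lower in KO. Acinar markers moved too, with 9 of 12 lower in KO and a summed 19993 to 23993 CPM against 27164 to 40064 CPM in WT. Their part in the difference was not tested.

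The genes whose profiles over the 18 libraries lay closest to a member were found by the root mean square difference of centred log2 CPM. For Sox9 they were Epn3 (0.218) and Lrrc8e (0.224), where the median over 13194 genes was 0.719. For Sox4 they were Mal2 (0.232) and Acadl (0.252), and for Nr0b2 Lman1 (0.240) and Sgpp1 (0.254). Pdx1 lay closest to Tob1 (0.264) and Hspa13 (0.271), Onecut1 to Adamts9 (0.345) and Timp2 (0.466), and Onecut2 to Mmp10 (0.644) and Arl4c (0.695). Klf4 lay closest to Med21 (0.239) and Tec (0.251), Klf5 to Mgat5 (0.409) and Dlg5 (0.417), and Klf6 to Ccdc71l (0.340) and Sbno2 (0.349). These profiles mostly follow the days that the groups share, and the values are a description.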

How the data were processed

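Single-end RNA sequencing of the 18 libraries was done by the authors, who filtered the reads and mapped them to GRCm38. Gene-level counts were made by the authors with featureCounts (1.5.3). Which aligner was used, and whether strand was considered, is not given in the sources used here. The deposited counts are unnormalized. The deposited FPKM values (13324 genes) were full quantile normalized by the authors with EDASeq and served as an alternative only. No column of the tables belonged to samples outside the 18 (0 columns). The authors' own comparisons were not used.

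Counts were tested in R 4.3.3 with edgeR 4.0.16 (default filter on low counts, TMM, robust quasi-likelihood F-test) in 1 model of the 6 groups, with Benjamini-Hochberg adjustment over all 13203 genes and calls at an adjusted p under 0.05. SEs were taken as the log2 fold change divided by the square root of F. The 95% intervals use these SEs with a normal quantile, so they can be narrower than the F-test implies. For Sox9 in KO from day 0 to day 1 the interval runs from 0.007 to 0.60, at an unadjusted F-test p of 0.054. A check on simulated counts covered WT day 1 against day 0 only, with the same spread for all genes. It does not cover members with few counts or libraries that stand out. Depth was 12127474 to 20135435 counts a library, and counting intervals are exact at 95% and cover counting error only. DESeq2 1.42.0, limma 3.58.1 on log2(FPKM + 1), no filter, library totals, a replicate block, and left-out libraries were alternatives. Chromosomes came from the GENCODE annotation and promoters from RefSeq (6 of 9 members had an entry). The text names all members, at most 3 genes a list and direction by smallest adjusted p, and the 2 nearest profiles, besides Egr1, Klf2, Ddx3y, Gm26735 and Gm20649, chosen after their values were seen. The 9 members and the lists were chosen with earlier results of these data known. Libraries of a group are described as biological replicates, but no label ties them to animals, so p-values measure the spread between these libraries.

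Same-numbered KO libraries of day 1 and day 4 deviated together from their group means (all 3 correlations over 0.1, from 0.147 to 0.317). WT library 3 and KO library 3 of day 4 reached 0.409, and WT library 1 and KO library 2 of day 4 reached 0.272. Correlations of this size therefore do not show that libraries are paired, and the numbers served as a block in an alternative only. The main test has no block. For KO day 4 against day 1 the blocked value stands beside the result whose call it changed. Calls that the block changed in other comparisons are given in the last paragraph.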

Additional observations from a re-analysis of the deposited data

How the results depend on the processing

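Of the changes over time, 13 member values that were called with or without it turned sign with library totals. Member values also changed sign in 28 cases with a library left out and 14 with other settings, none of them called on either side. The 13 values that turned with library totals were, from day 1 to day 4, Sox9 1.18, Klf4 1.36 and Klf6 0.40 in WT, and Sox9 1.22, Klf6 1.42 and Nr0b2 1.45 in KO. From day 0 to day 4 they were Sox9 2.77, Onecut1 2.90, Pdx1 1.96 and Nr0b2 1.22 in WT, and Sox9 2.75, Pdx1 1.998 and Nr0b2 0.46 in KO. This follows from the scaling, since the median gene moves with it. Members called from day 1 to day 4 were then 8 higher and 0 lower in WT and 9 higher and 0 lower in KO (5 in the main test), and from day 0 to day 4, 9 and 0 in WT and 8 and 0 in KO. With limma on FPKM the calls of Sox9 from day 0 to day 1 (0.32), Klf4 (-0.30) and Klf5 (0.58) from day 1 to day 4 in WT, and Onecut2 from day 0 to day 4 in KO (0.08) were lost. Between genotypes, members called were 1 at day 0 with no filter (Sox4). At day 1 there were 0 with library totals, 0 without the WT libraries numbered 1 and 0 with limma on FPKM. At day 4 there were 2 with no filter, 1 with library totals, 1 without the WT libraries numbered 1 and 1 with DESeq2. The change of the difference from day 1 to day 4 was called for 1 with no filter (Klf4), 1 without the WT libraries numbered 1 (Klf6, 0.63) and 2 with DESeq2 (Klf4 and Klf6). The cause was not tested. Leaving out libraries in turn gave 0 to 1 members called at day 1, 0 to 1 at day 4 and 0 to 1 for the change from day 1 to day 4. Where depth limits a value it is at day 0 and day 1 for Onecut2 and at day 1 for Onecut1.

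With the replicate number as a block, 8, 6 and 7 members were called in WT (day 1 against day 0, day 4 against day 1, day 4 against day 0) and 9, 6 and 7 in KO, against 8, 7 and 7 and 7, 5 and 7 without it. The block ended the call of Klf5 from day 1 to day 4 in WT (0.45, adjusted p = 0.064) and made calls of Sox9 (0.33) and Onecut2 (3.13) from day 0 to day 1 and of Onecut2 (1.51) from day 1 to day 4 in KO. Outside KO day 1 and day 4, same-numbered libraries did not all deviate together, although the WT libraries numbered 1 share Ddx3y at all days. The block changed no other member's call.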
